A study of Rattus norvegicus with 10 samples.

Results

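The genes described here are the effectors that interferons switch on, measured in rat macrophages that had taken up myelin. Members were chosen by name. A probe set, the group of short probes that measures a transcript on the array, was taken when the array annotation gave it a single gene symbol that began with Oas or Ifitm, or with Gbp, Ifi or Ifit and a number, or belonged to the Trim genes numbered 21 to 25, or was on a list of 28 symbols. This gave 41 genes measured by 47 probe sets, of 14217 genes and 20826 probe sets that carry a single symbol and 31042 probe sets tested. Of the 28 listed genes 27 were found, Xaf1 was not among the named probe sets, and 14 genes entered through their name pattern alone. Where a gene had several probe sets (Cmpk2, Dhx58, Ifit2, Mx2 and Parp14), the one with the highest mean over the 10 arrays stands for it unless said otherwise.

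Mye-macrophages were resident peritoneal macrophages of rats of the strain Hsdcpb:WU that received 100 µg/ml of myelin isolated from brain for 3 days. Control macrophages were the same kind of cells kept for 3 days without myelin. Both groups then received IFNγ and IL-1β at 100 ng/ml for 9 hours before total RNA was taken, so every sample was stimulated with interferon, there was no group without it, and induction by IFNγ itself was not measured. Each group holds 5 arrays with the replicate numbers 1 to 5 in the labels, and separate animals are not stated for them, so p-values measure the spread between these samples, which may be technical. The cells had been enriched by adherence to plastic. Of 11 macrophage genes measured, Cd68 and Lyz2 had mean log2 signals of 11.29 and 12.27, but Adgre1 and Mrc1 had 6.12 and 2.64. Cd163, at 1.06, was the 1 macrophage gene below the median of all probe sets (2.32).

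Interferons act through receptors on the cell surface that activate Janus kinases and STAT proteins. The genes that respond carry short DNA elements near their starts, the interferon-stimulated response element, which type I interferons mainly act on, and the gamma-activated site, which IFNγ mainly acts on. In macrophages the resulting proteins attack the membranes around microbes, bind foreign nucleic acids, cut or trap viruses and feed back on the pathway.

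Samples of the same replicate number were compared as pairs, a mye-macrophage array minus a control macrophage array. This choice was made with earlier results of these data known. Samples of the same number deviated together from their group means (correlations of 0.404 to 0.791 over all probe sets for the same number, at most 0.279 across numbers). What a number shares (an animal, a day or a culture) is not given in the sources used here. Differences are on the log2 scale of the signal. P-values come from limma with the replicate number as a block, adjusted (Benjamini-Hochberg) over the 15521 probe sets that varied most across the 10 arrays by interquartile range, and a call needs an adjusted p below 0.05. Signals of different probe sets depend on their probes and are not compared here as amounts of RNA.

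The effector genes as a whole differed little between mye-macrophages and control macrophages. Of the 41 genes 1 rose, the membrane protein gene Ifitm1 with a log2 difference of 0.35, and 1 fell, the RNA exonuclease gene Isg20 with a log2 difference of -0.35. The median difference over the 41 genes was 0.04, beside 0.01 over all named genes, and 25 genes lay above 0 and 16 below it (61.0% above 0, beside 51.9% of all named genes). The largest and the smallest difference were 0.38 for Oas1a and -0.35 for Isg20. For 37 of the 41 genes the whole 95% interval of the difference lay within 0.5 of zero on the log2 scale, a 1.41-fold change. The exceptions were Ifitm1, Ifitm2, Isg20 and Oas1a, whose intervals reached past that bound, and the outermost bounds were -0.51 and 0.59. These intervals hold for each gene alone and not for all genes at the same time. They also rest on the replicate block. Without it the median standard error was 0.212 instead of 0.081, and that of Rsad2 was 0.83 instead of 0.11. Intervals without the block are therefore wider, and the genes within the bound were not counted for that fit.

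**Figure D1:**
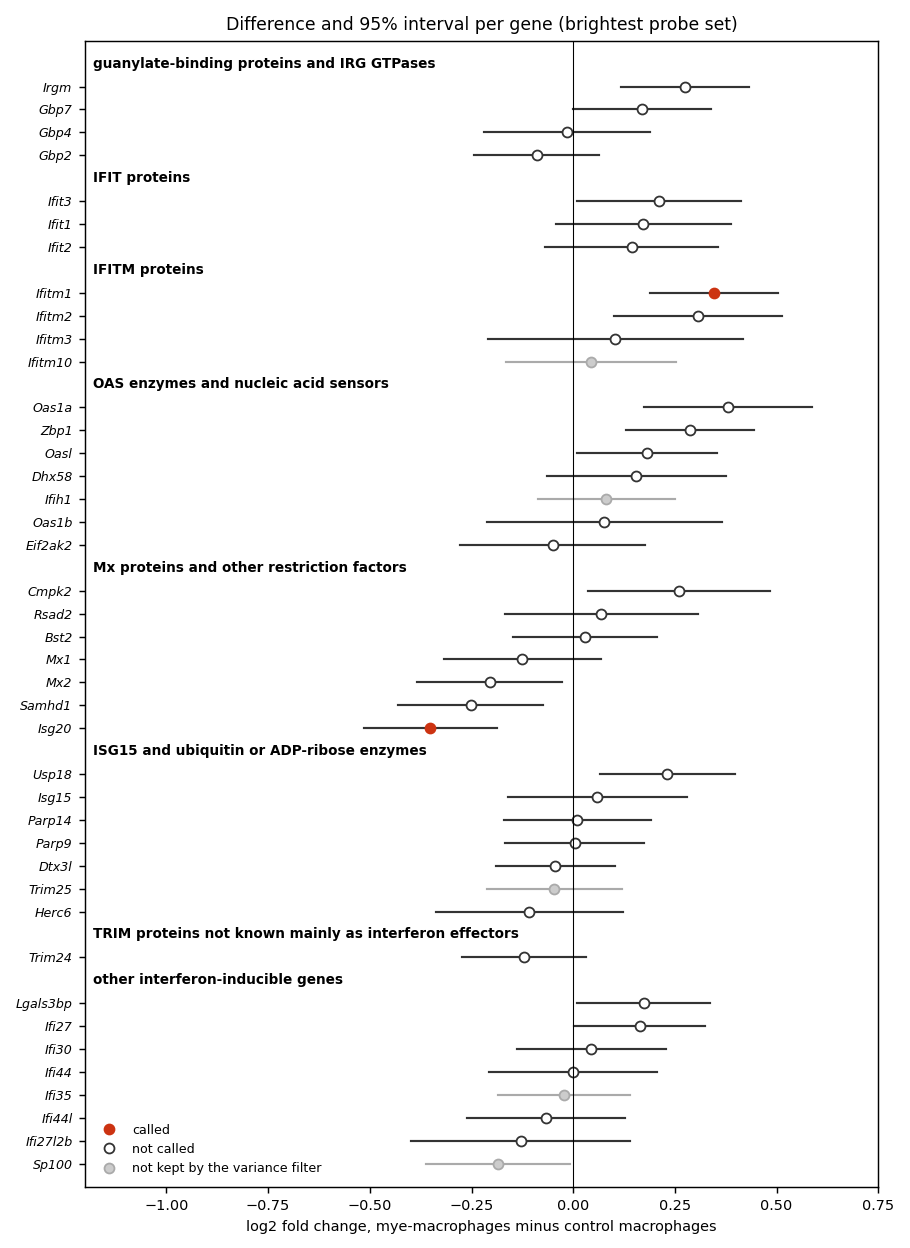
Log2 difference of each of the 41 genes (x axis, mye-macrophages minus control macrophages, 5 pairs) with its 95% interval from limma with replicate numbers as blocks, grouped by role. Red points passed the adjusted p of 0.05 (Ifitm1 and Isg20), white points did not, grey points were not kept by the variance filter and have no adjusted p. All points lie between -0.35 and 0.38.

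The filter, which uses the spread over all arrays and no group, kept 41 of the 47 probe sets (87.2%) and the probe sets that stand for 36 of the 41 genes. Those of Ifi35, Ifih1, Ifitm10, Sp100 and Trim25 varied too little and have no adjusted p. Of the 41 probe sets kept, 2 were called (4.88%), beside 2.69% of all probe sets that passed the filter. The 1 that rose stands beside 0.792% of all filtered probe sets called higher and the 1 that fell beside 1.90% called lower. At an unadjusted p below 0.05 there were 14 of the 41 (34.1%, 11 higher and 3 lower), beside 20.3% of all filtered probe sets. These shares of all filtered probe sets also stand beside the counts by role and by gene list that follow. In 12 of the 41 genes (29.3%) all 5 pairs moved the same way, beside 15.5% of all named genes. Ifi27, Ifitm1, Ifitm2, Irgm, Lgals3bp, Oas1a, Usp18 and Zbp1 were higher in mye-macrophages in all 5 pairs, and Gbp2, Isg20, Mx2 and Trim24 were lower. In 0 of the 41 genes did the 5 mye-macrophage values lie wholly apart from the 5 control values, beside 0.619% of all named genes.

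The guanylate-binding proteins and the related immunity GTPase Irgm are GTPases that IFNγ induces and that act on the membranes around intracellular microbes. Of the 4 genes 0 passed the limma test (1 at an unadjusted p below 0.05), and their differences ran from -0.09 (Gbp2) to 0.28 (Irgm) with a median of 0.08. Gbp2 had log2 signals of 11.13, 11.03, 10.91, 10.19 and 10.77 in mye-macrophages of replicates 1 to 5, against 11.23, 11.29, 10.92, 10.23 and 10.82 in control macrophages. Every mye-macrophage array was slightly below its partner, replicate 4 was the lowest in both groups, and the groups overlapped. The difference was -0.09 (SE 0.07, 95% interval -0.24 to 0.06, adjusted p = 0.499).

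Irgm had signals of 8.35, 8.10, 7.89, 8.08 and 7.76 in mye-macrophages, against 8.01, 8.01, 7.63, 7.70 and 7.45 in control macrophages. All 5 mye-macrophage arrays were above their partners, with overlapping groups and a difference of 0.28 (SE 0.07, adjusted p = 0.0717) that missed the threshold. Gbp7 and Gbp4 had differences of 0.17 and -0.02, with adjusted p of 0.248 and 0.943. Gbp7, Gbp4 and Gbp2 lie close together on chromosome 2 in the RefSeq annotation.

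The promoters of Gbp2 and Irgm are shown because both genes belong to the class that IFNγ induces and both hold a response element core near their start. They are the 200 bases before the annotated gene start in RefSeq (build GRCr8), at chr2:234005527-234005726 on the plus strand for Gbp2 and chr10:33742579-33742778 on the minus strand for Irgm. Capitals mark GAAANNGAA, the core of the interferon-stimulated response element, on either strand, and TTCNNNGAA, the core of the gamma-activated site.
Gbp2: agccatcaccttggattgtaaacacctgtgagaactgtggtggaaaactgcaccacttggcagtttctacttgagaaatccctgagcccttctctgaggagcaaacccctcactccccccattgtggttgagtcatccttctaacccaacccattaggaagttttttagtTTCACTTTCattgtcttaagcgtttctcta
Irgm: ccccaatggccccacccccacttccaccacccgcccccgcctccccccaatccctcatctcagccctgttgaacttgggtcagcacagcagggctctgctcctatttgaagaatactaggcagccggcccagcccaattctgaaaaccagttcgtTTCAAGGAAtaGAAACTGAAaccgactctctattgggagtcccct
In Gbp2 the response element core lies on the opposite strand and begins 30 bases before the start. In Irgm a gamma-activated core begins 45 bases and a response element core 34 bases before the start. These are matches of letters and binding was not measured.

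The 3 IFIT genes, whose proteins bind foreign RNA ends, all lay above 0, with 0 past the limma test and 1 at an unadjusted p below 0.05. Ifit3 had a difference of 0.21 (95% interval 0.01 to 0.41, adjusted p = 0.226), Ifit1 of 0.17 (adjusted p = 0.346) and Ifit2 of 0.14 (adjusted p = 0.434). The direction of Ifit2 was not shared by its probe sets, since its dimmer probe set, which the filter did not keep, gave -0.24. Ifit2, Ifit3 and Ifit1 are neighbours on chromosome 1.

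The IFITM genes code for small membrane proteins that hinder the fusion of virus and cell membranes. All 4 lay above 0 with a median of 0.21, and 1 rose, but Ifitm3 and Ifitm10 had no common direction in the pairs. Ifitm1 had signals of 10.10, 9.43, 9.35, 9.95 and 9.30 in mye-macrophages, against 9.62, 9.07, 9.13, 9.70 and 8.89 in control macrophages. Each mye-macrophage array was above its partner, replicates 1 and 4 were the highest in both groups, and the groups overlapped. Ifitm1 was 1.27-fold higher, a difference of 0.35 (SE 0.07, 95% interval 0.19 to 0.50, adjusted p = 0.0384, higher in 5 of 5 pairs). The call was lost without the replicate block (adjusted p = 0.857), where the spread between replicate numbers enters the error, and without the variance filter (adjusted p = 0.0768). Leaving out replicate 1, 2, 4 or 5 with both of its arrays also ended it (adjusted p = 0.119, 0.103, 0.0938 and 0.125).

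Ifitm2, next to Ifitm1 on chromosome 1, had signals of 9.17, 8.11, 8.41, 8.92 and 8.39 in mye-macrophages, against 8.45, 7.91, 8.23, 8.65 and 8.22 in control macrophages. The same 2 replicate numbers, 1 and 4, were highest in both groups, and mye-macrophages were above their partners in 5 of 5 pairs. The groups overlapped and the difference of 0.31 (SE 0.09, 95% interval 0.10 to 0.51) did not pass (adjusted p = 0.112). Ifitm3, the third neighbour, had a difference of 0.10 (adjusted p = 0.715, higher in 3 of 5 pairs). Ifitm10 had one of 0.04 (higher in 2 of 5 pairs) at a mean signal of 1.32, below the median of all probe sets (2.32). Members of such families are close in sequence, the probe sequences were not used here, and whether a probe set also reads a neighbour was not tested.

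The OAS enzymes make a short adenylate messenger that activates an RNase when they meet foreign double-stranded RNA, and they are grouped here with other nucleic acid sensors. Of these 7 genes 6 lay above 0, with a median of 0.15, and 0 of the 6 kept by the filter passed the limma test (3 at an unadjusted p below 0.05). Oas1a had signals of 4.96, 3.92, 3.97, 3.62 and 3.88 in mye-macrophages, against 4.37, 3.87, 3.44, 3.40 and 3.36 in control macrophages. Replicate 1 stood above the other arrays in both groups, all 5 mye-macrophage arrays were above their partners, and the groups overlapped. The difference was 0.38, or 1.30-fold (SE 0.09, 95% interval 0.18 to 0.59, adjusted p = 0.0622), the lowest adjusted p among the genes that missed the threshold. It passed under quantile normalization (0.0435), array weights (0.0473) and a robust variance prior with a trend (0.0365).

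Zbp1, a sensor of left-handed nucleic acids that can start cell death, had signals of 6.16, 6.31, 5.70, 4.92 and 5.56 in mye-macrophages, against 5.84, 6.14, 5.38, 4.48 and 5.38 in control macrophages. Mye-macrophages were higher in all 5 pairs, while the groups overlapped across a range set by replicate 2 at the top and replicate 4 at the bottom. The difference was 0.29 (SE 0.07, 95% interval 0.13 to 0.45, adjusted p = 0.0649). Oasl had 0.18 (adjusted p = 0.223) and Oas1b, beside Oas1a on chromosome 12, had 0.08 (adjusted p = 0.779). Among the helicases that sense viral RNA, Dhx58 gave 0.15, 0.17 and 0.11 with its 3 probe sets and Ifih1 0.08. Eif2ak2, the kinase that stops translation on double-stranded RNA, lay at -0.05.

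The promoter of Oas1a, at chr12:41330266-41330465 on the plus strand, is shown because it holds the response element core in a tandem.
Oas1a: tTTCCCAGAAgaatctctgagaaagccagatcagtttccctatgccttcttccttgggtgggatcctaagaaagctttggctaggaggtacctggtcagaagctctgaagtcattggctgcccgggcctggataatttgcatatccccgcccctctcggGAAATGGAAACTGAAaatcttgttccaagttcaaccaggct
The cores begin 41 and 35 bases before the start and share bases, and a gamma-activated core begins 199 bases before the start.

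The Mx proteins and other restriction factors spread to both sides of 0, with a median of -0.12 over 7 genes, 3 above 0 and 4 below. With the probe set of the largest interquartile range for each gene the median was 0.03, on the other side of 0. Isg20, an exonuclease that degrades viral RNA, was the gene that fell. It had signals of 5.18, 6.04, 5.19, 3.85 and 5.41 in mye-macrophages, against 5.35, 6.38, 5.49, 4.34 and 5.87 in control macrophages. Every mye-macrophage array was below its partner, replicate 2 was the highest and replicate 4 the lowest in both groups, and the groups overlapped. Isg20 was at 0.78-fold of the control level, a difference of -0.35 (SE 0.07, 95% interval -0.51 to -0.19, adjusted p = 0.0403, lower in 5 of 5 pairs). This call too was lost without the block (adjusted p = 0.936), without the variance filter (0.0807) and when replicate 1, 2, 4 or 5 was left out (0.0780, 0.104, 0.130 and 0.130).

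Samhd1, which breaks down the building blocks of DNA, had signals of 4.22, 4.35, 3.62, 2.84 and 3.54 in mye-macrophages, against 4.37, 4.69, 3.62, 3.24 and 3.93 in control macrophages. It was lower in 4 pairs and equal in the pair of replicate 3, with overlapping groups and a difference of -0.25 (SE 0.08, adjusted p = 0.127). Mx2 had signals of 7.14, 7.52, 7.25, 6.02 and 7.47 in mye-macrophages, against 7.16, 7.96, 7.40, 6.34 and 7.56 in control macrophages. Replicate 4 lay far below the other arrays in both groups, and although mye-macrophages were lower in 5 of 5 pairs the difference of -0.20 did not pass (SE 0.08, adjusted p = 0.192). The dimmer probe set of Mx2 gave 0.11, the opposite direction.

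Mx1, its neighbour on chromosome 11 and like Mx2 a dynamin-like GTPase that blocks viruses, had signals of 6.73, 6.62, 5.43, 5.64 and 6.55 in mye-macrophages, against 6.52, 6.94, 5.68, 5.72 and 6.73 in control macrophages. Replicates 3 and 4 were low in both groups, 4 of the 5 mye-macrophage arrays were below their partners, and the groups overlapped. The difference was -0.12 (SE 0.09, 95% interval -0.32 to 0.07, adjusted p = 0.454).

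Rsad2, the viperin gene whose enzyme makes an antiviral nucleotide, had signals of 9.90, 10.01, 8.35, 6.27 and 8.53 in mye-macrophages, against 9.83, 10.36, 8.01, 6.34 and 8.18 in control macrophages. Replicates 1 and 2 were the highest and replicate 4 the lowest in both groups, which overlapped over nearly their whole range. The difference was 0.07 (SE 0.11, 95% interval -0.17 to 0.31, adjusted p = 0.755, higher in 3 of 5 pairs), and without replicate 5 it was -0.0024.

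Cmpk2, a nucleotide kinase next to Rsad2 on chromosome 6, had signals of 8.21, 8.02, 6.97, 5.66 and 7.39 in mye-macrophages, against 7.84, 8.24, 6.62, 5.34 and 6.91 in control macrophages. It showed the same high and low replicate numbers as Rsad2, with mye-macrophages above their partners in every pair but replicate 2. The difference of 0.26 (SE 0.10, 95% interval 0.04 to 0.48) did not pass (adjusted p = 0.189), and the dimmer probe set gave 0.11. Bst2, which tethers virus particles to the cell, lay at 0.03.

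**Figure D2:**
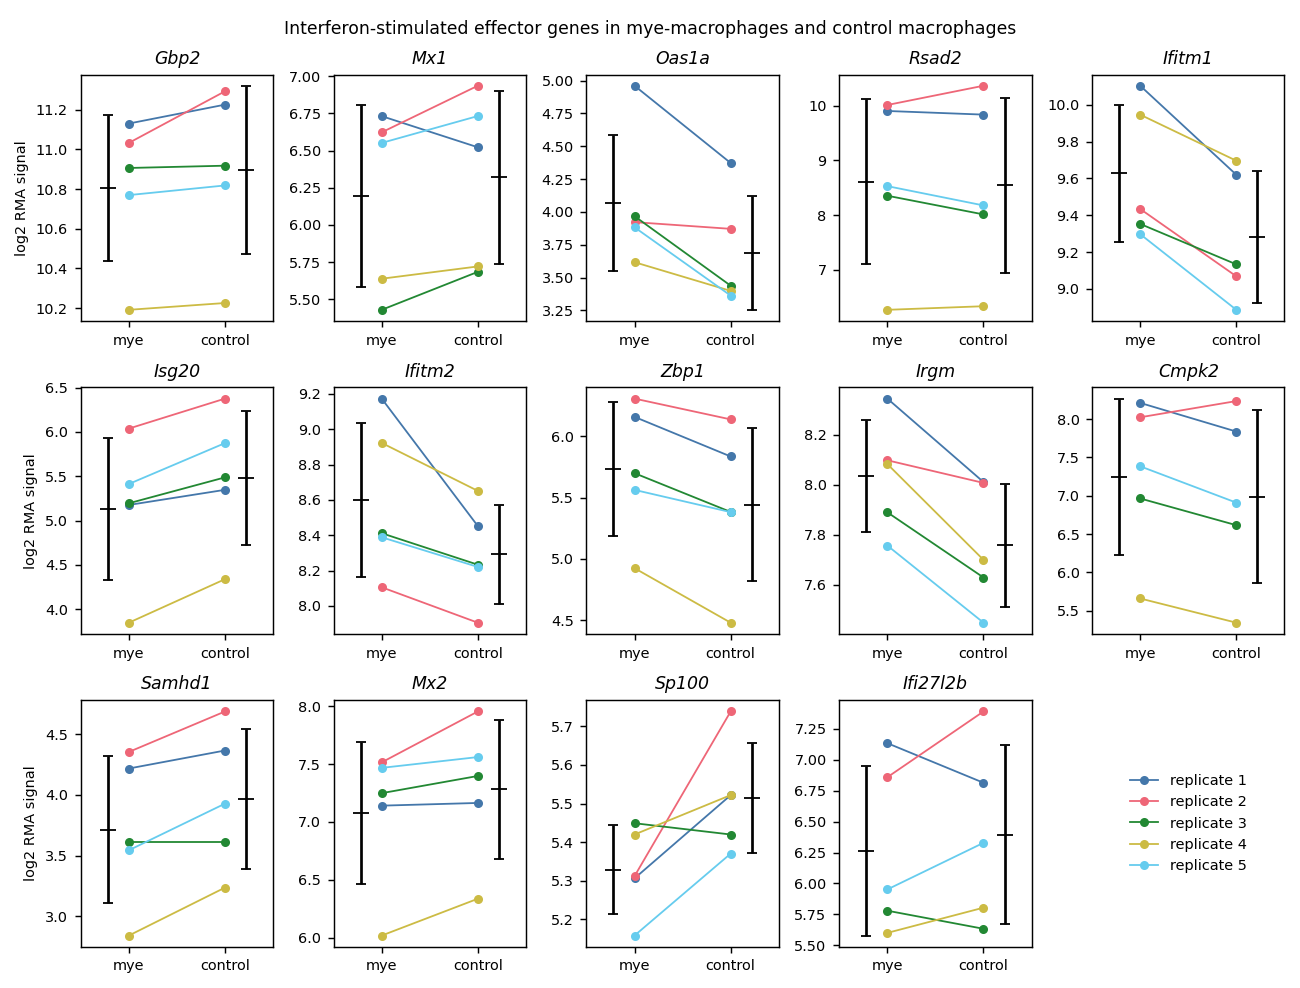
Log2 RMA signal (y axis, own scale in each panel) of the 14 genes described sample by sample, mye-macrophages on the left and control macrophages on the right of each panel. Lines join arrays of the same replicate number and black bars give the mean and SD of 5 arrays. In most panels, though not in that of Sp100, lines are far apart and mostly run parallel. The groups overlap in every panel.

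The promoters of Isg20, Rsad2 and Cmpk2 are shown because Isg20 was the gene that fell and because Rsad2 and Cmpk2 are neighbours that moved together across replicate numbers. They lie at chr1:142239859-142240058 (plus strand), chr6:48788121-48788320 (minus strand) and chr6:48802650-48802849 (plus strand).
Isg20: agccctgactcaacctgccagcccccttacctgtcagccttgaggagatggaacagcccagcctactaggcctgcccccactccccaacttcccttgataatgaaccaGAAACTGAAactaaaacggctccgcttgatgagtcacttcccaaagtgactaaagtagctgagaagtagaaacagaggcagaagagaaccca
Rsad2: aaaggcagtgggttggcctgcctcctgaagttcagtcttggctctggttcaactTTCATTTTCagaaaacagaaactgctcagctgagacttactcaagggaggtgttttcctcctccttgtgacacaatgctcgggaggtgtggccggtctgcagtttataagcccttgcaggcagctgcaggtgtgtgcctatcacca
Cmpk2: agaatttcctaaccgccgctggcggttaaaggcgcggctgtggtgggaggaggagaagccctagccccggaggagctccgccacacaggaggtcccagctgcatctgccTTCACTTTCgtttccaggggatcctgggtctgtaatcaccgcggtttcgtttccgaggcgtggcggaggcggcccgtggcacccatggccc
The response element core begins 92, 146 and 91 bases before the start of Isg20, Rsad2 and Cmpk2, and lies on the opposite strand in Rsad2 and Cmpk2.

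RefSeq promoter windows, 250 bases before to 50 bases after the start, were matched to 32 of the 41 genes, and the windows of Dhx58, Ifi27l2b, Ifit1, Ifit2, Ifitm1, Isg15, Mx2, Usp18 and Zbp1 were not matched. GAAANNGAA on either strand was in 21 of the 32 genes (65.6%), beside 10.3% of the 27457 genes in the table. TTCNNNGAA was in 9 (28.1%), beside 9.39% of all genes. Both were in 8 genes and neither in 10, Herc6, Ifi30, Ifi35, Ifitm10, Mx1, Oasl, Parp9, Sp100, Trim24 and Trim25, and matches of the 2 patterns can share bases. Isg20, which fell, and Irgm, Ifitm2 and Oas1a, which lay above 0, all hold the response element core, so genes with it lay on both sides of 0.

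Isg15 is a ubiquitin-like protein that is attached to other proteins after interferon. This gene and the enzymes of ubiquitin and ADP-ribose around it had a median difference of 0.0036 over 7 genes, 4 above 0 and 3 below, and 0 of the 6 kept by the filter passed the limma test (1 at an unadjusted p below 0.05). Usp18, which removes Isg15 and dampens the type I receptor, had a difference of 0.23 (95% interval 0.07 to 0.40, adjusted p = 0.129) and was higher in 5 of 5 pairs. Isg15 itself lay at 0.06, the ligase gene Herc6 at -0.11 and Trim25, a ligase that activates RNA sensing, at -0.05. Parp9 and Dtx3l, partners that modify histones and viral proteins, lay at 0.0036 and -0.04, and Parp14, a neighbour of both on chromosome 11, at 0.01 (its dimmer probe set at -0.14).

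The remaining 8 genes carry interferon in their name or belong to the same response and had a median of -0.01. Ifi27l2b, a small membrane protein gene, had signals of 7.13, 6.86, 5.78, 5.60 and 5.95 in mye-macrophages, against 6.81, 7.39, 5.63, 5.80 and 6.33 in control macrophages. Replicates 1 and 2 were high in both groups, which overlapped, and the difference of -0.13 (SE 0.12, adjusted p = 0.586) had no common direction in the pairs. Sp100, a nuclear body protein gene, had signals of 5.31, 5.31, 5.45, 5.42 and 5.16 in mye-macrophages, against 5.52, 5.74, 5.42, 5.52 and 5.37 in control macrophages. It was lower in 4 of 5 pairs with a difference of -0.19 (95% interval -0.36 to -0.01) and was not kept by the filter.

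The membrane protein gene Ifi27 (0.16, adjusted p = 0.242) and the secreted glycoprotein gene Lgals3bp (0.17, adjusted p = 0.222) were higher in mye-macrophages in all 5 pairs without passing. Ifi30, the thiol reductase of antigen processing, lay at 0.04, Ifi35 at -0.02 and Ifi44l at -0.07, and Ifi44 at -0.0010. Trim24, a transcription cofactor that entered through its name and is not known mainly as an interferon effector, lay at -0.12 and was lower in 5 of 5 pairs (adjusted p = 0.35).

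The effector genes varied far more between replicate numbers than between the groups. The SD of the 5 pair means had a median of 0.37 over the 41 genes, beside 0.134 over all named genes, whereas the SD of the 5 differences had a median of 0.179, beside 0.166. The 41 genes also had a higher median signal (7.12, beside 4.09 over all named genes), and spreads were not compared at like signal. In 38 of the 41 genes the SD of the pair means exceeded the size of the group difference, the exceptions being Ifit2, Irgm and Sp100, beside 76.7% of all named genes. The median standard error of the group difference was 0.081 with the replicate block and 0.212 without it. In 18 genes the pair means spanned over 1 log2 unit, beside 7.02% of all named genes.

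Among these 18, Rsad2 had pair means of 9.87, 10.19, 8.18, 6.31 and 8.35 for replicates 1 to 5, a 14.7-fold range. Usp18 and Ifit1 were singled out after their values were seen. Usp18 had signals of 9.26, 9.78, 7.87, 7.24 and 8.51 in mye-macrophages, against 9.11, 9.56, 7.56, 7.17 and 8.09 in control macrophages, and Ifit1 had 3.26, 4.16, 1.35, 1.35 and 1.44 in mye-macrophages, against 3.20, 3.76, 1.21, 1.52 and 1.00 in control macrophages. Both were high in replicates 1 and 2, Usp18 was lowest in replicate 4, and Ifit1 was below the median signal of all probe sets (2.32) in replicates 3, 4 and 5. The highest pair mean was in replicate 1 or 2 in 34 of the 41 genes (82.9%, beside 42.9% of all named genes). The lowest was in replicate 4 in 22 genes (53.7%, beside 29.8%) and in replicate 5 in 11.

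Not all members followed that order. Ifitm3, named for the same reason, had pair means of 3.47, 2.97, 4.50, 4.96 and 2.20, highest in replicate 4, where Rsad2 was lowest. Ifitm1 and Ifitm2 also had replicate 4 among their highest arrays.

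**Figure D3:**
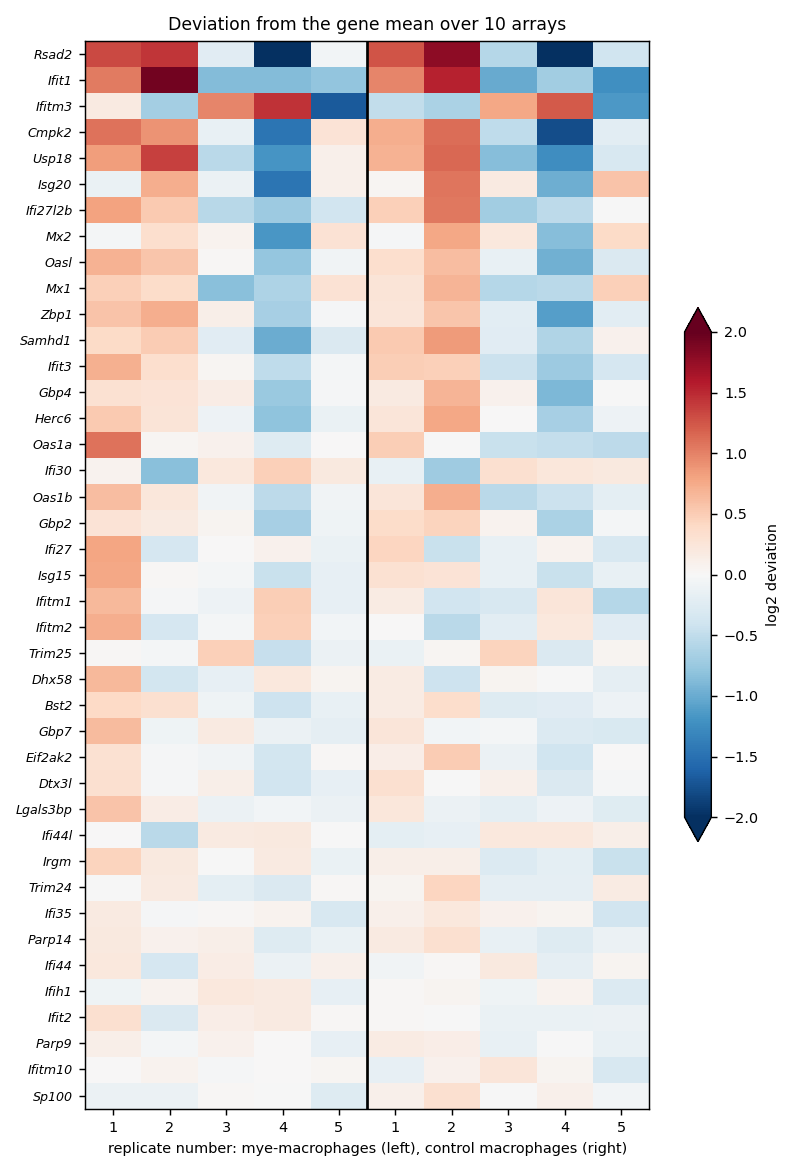
Deviation of each log2 signal from the mean of its gene over the 10 arrays (colour, clipped at 2 units), with genes in rows ordered by the SD of their pair means and arrays in columns, mye-macrophages 1 to 5 left of the black line and control macrophages 1 to 5 right of it. Columns of the same number resemble each other, with replicate 2 red and replicate 4 blue in most upper rows and Ifitm3 the reverse.

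The difference between mye-macrophages and control macrophages was itself uneven over the pairs. The median difference of the 41 genes was 0.22 in replicate 1 (33 genes higher in mye-macrophages, 8 lower), -0.17 in replicate 2 (11 higher, 30 lower) and 0.14 in replicate 3 (28 higher, 12 lower). It was 0.02 in replicate 4 and 0.04 in replicate 5, with 22 genes higher and 19 lower in each. The medians of all named genes lay between -0.0081 and 0.011 in the same pairs.

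The gap between the 3' and 5' control probe sets of beta-actin, a measure of RNA integrity, averaged 3.30 ± 0.32 log2 units in mye-macrophages and 3.02 ± 0.30 in control macrophages (SD, n = 5 each, exact permutation test without the pairing, two-sided, p = 0.190). Its difference was 0.82, 0.45, -0.21, 0.0014 and 0.29 in replicates 1 to 5. With the gap as a covariate beside the block, Ifitm1 had a difference of 0.27 (adjusted p = 0.265) and Isg20 one of -0.40 (adjusted p = 0.163).

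**Figure D4:**
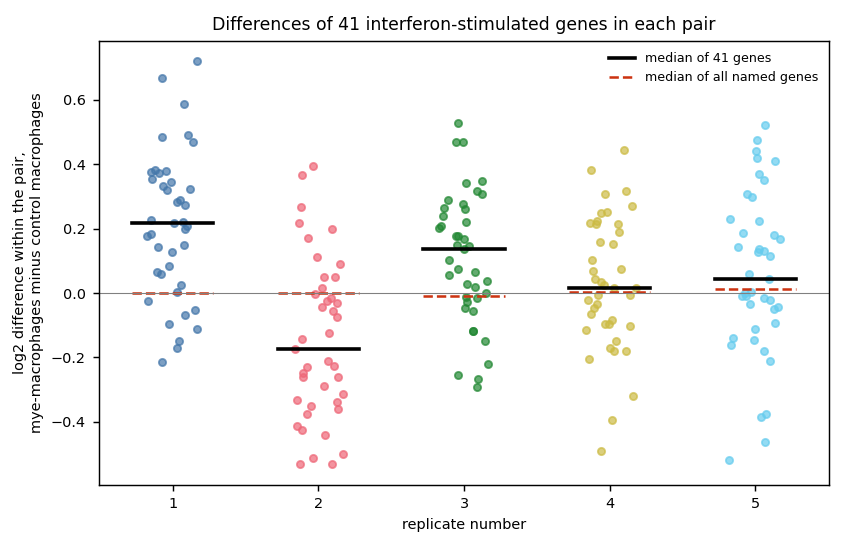
Log2 difference within each pair (y axis, mye-macrophages minus control macrophages) by replicate number (x axis), 1 point per gene for the 41 genes. Black lines give the median of the 41 genes (0.22, -0.17, 0.14, 0.02 and 0.04) and dashed red lines that of all named genes, close to 0.

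Upstream of the effectors, 13 genes for interferon receptors and JAK-STAT signaling were measured, and of the 9 kept by the filter 0 were called in limma (1 of the 13 at an unadjusted p below 0.05), beside 2.69% of all filtered probe sets. Ifnar1, a subunit of the type I receptor, averaged 5.97 ± 0.18 in mye-macrophages and 6.36 ± 0.16 in control macrophages (SD, n = 5 each), a difference of -0.39 (SE 0.09, adjusted p = 0.0506, lower in 5 of 5 pairs). The feedback inhibitors Socs1 and Socs3 lay at -0.18 and -0.17 and Jak2 at -0.13. Of the 7 interferon regulatory factors measured 4 were kept, 0 of these were called and 0 of the 7 had an unadjusted p below 0.05, with Irf8 at 0.16, Irf3 at 0.12, Irf9 at -0.08 and Irf5 at -0.06.

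Irf7, the factor that amplifies type I interferon, was singled out after its values were seen. It had signals of 8.39, 8.38, 7.31, 6.91 and 7.32 in mye-macrophages, against 8.33, 8.46, 7.40, 7.01 and 7.39 in control macrophages, a difference of -0.05 (adjusted p = 0.68). As in Rsad2, replicates 1 and 2 were high and replicate 4 was the lowest in both groups. Of 6 measured interferons and their inducers 4 were kept and 0 of these were called (1 of the 6 at an unadjusted p below 0.05). Ifnb1 and Ifng had mean signals of 0.86 and 0.52, below the median of all probe sets at 2.32, and Tlr7, a sensor of single-stranded RNA, lay at 0.56 (adjusted p = 0.0696, higher in 5 of 5 pairs).

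Among 18 other measured IFNγ targets 14 were kept and 1 of these was called, beside 2.69% of all filtered probe sets, and the median difference of the 18 was 0.12. Ido1, which breaks down tryptophan, averaged 2.23 ± 0.30 in mye-macrophages and 2.61 ± 0.22 in control macrophages (SD, n = 5 each) and fell by 0.38 (adjusted p = 0.0452, lower in 5 of 5 pairs), a call lost without the block or the variance filter (adjusted p = 0.65 and 0.0904). Its mean over all arrays was 2.42, close to the median of all probe sets at 2.32. Ciita, the master regulator of MHC class II, lay at 0.49 (adjusted p = 0.0545), the MHC class II chaperone Cd74 at -0.38 (adjusted p = 0.0695) and the chemokine gene Cxcl10 at 0.29 (adjusted p = 0.119).

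Markers of other cells varied between replicate numbers, and so did some macrophage markers. Adgre1 and Mrc1, named after their values were seen, had pair means of 5.37, 5.19, 7.35, 7.31 and 5.40, and of 1.95, 1.09, 2.88, 4.91 and 2.36. The summed level of the 11 macrophage markers was 13.99, 13.56, 13.97, 14.02 and 13.84 over the pairs. The summed level of 13 measured T, B and NK cell markers ranged over 5.28 to 7.19 in mye-macrophages and 5.44 to 6.98 in control macrophages and was 7.09, 6.42, 5.49, 5.39 and 5.88 over the pairs of replicates 1 to 5 (log2 of the summed signals). It was thus highest in replicates 1 and 2, where Rsad2, Ifit1 and Usp18 were high. The cytotoxic genes Prf1, Gzmb, Nkg7 and Klrb1a, named after their values were seen, were likewise highest in replicates 1 and 2. Cd3e and Cd3g were also highest in replicates 1 and 2, but Cd3d, at a mean of 1.25, was highest in replicates 1 and 5. The order of the remaining markers is not given here. Cd3e had a mean of 2.32, and 8 of the 13 markers lay below the median of all probe sets.

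The summed level of 10 granulocyte and mast cell markers ranged over 5.51 to 9.55 in mye-macrophages and 5.59 to 9.54 in control macrophages. Over the pairs it was 6.96, 5.55, 7.09, 9.54 and 6.85, highest in replicate 4, where Rsad2 was lowest and Ifitm3 highest. In that pair Cpa3, a mast cell protease gene, averaged 7.96 and Fcer1a, an IgE receptor subunit gene, 5.73, while 7 of the 10 markers had mean levels below the median of all probe sets. Cpa3 and Fcer1a alone do not reach the sum of 9.54, and the other markers that enter it are not named here. For 10 mesothelial and fibroblast markers the summed level ranged over 4.78 to 6.67 in mye-macrophages and 4.84 to 6.62 in control macrophages, also with its highest pair in replicate 4 (6.65). The matrix gene Dcn alone averaged 6.25 in that pair, and 8 of the 10 markers had mean levels below the median of all probe sets. In limma 0 calls were made among the markers of these cells that the filter kept, beside 2.69% of all filtered probe sets. Kept were 12 T, B and NK cell, 7 granulocyte and mast cell, 5 mesothelial and fibroblast and 5 plasmacytoid dendritic cell markers. Unadjusted, 2 of the dendritic cell markers and 0 of the others had a p below 0.05, beside 20.3% of all filtered probe sets. The part of these markers in the spread of the effector genes was not tested. Of the 11 macrophage markers measured 6 were kept and 1 of these rose, beside 0.792% of all filtered probe sets called higher. This was the mannose receptor gene Mrc1, by 0.71 (adjusted p = 0.0265), a call lost without the variance filter or the block (adjusted p = 0.053 and 0.935). Of 12 oligodendrocyte and myelin genes 5 were kept and 2 of these rose, beside the same 0.792%. These were Mobp by 3.60 and Bcas1 by 1.76 (adjusted p = 0.0019 and 0.0033), both calls lost without the block (adjusted p = 0.208 and 0.469). The myelin gene Mbp has 3 probe sets: the brightest, which stands for it here, lay at -0.20 and was not kept, another lay at -0.04 (adjusted p = 0.898), and the third rose by 3.37 (adjusted p = 0.000877, higher in 5 of 5 pairs). This call too was lost without the block (adjusted p = 0.208). Whether RNA of these genes was carried in with the myelin was not tested here. The study reports a negligible amount of RNA in the myelin, with data not shown. In such cultures fewer cells of a type and less RNA per cell cannot be told apart.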

How the data were processed

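Total RNA of 5 samples of mye-macrophages and 5 of control macrophages had been hybridised to Affymetrix rat genome arrays. The authors deposited log2 values for 31099 probe sets after RMA with the affy package, which corrects the background, normalizes between arrays and summarizes the probes; no version is given in the sources used here. Values ran between -0.04 and 13.09, with array medians of 2.30 to 2.34 over the 10 arrays, low for RMA for a reason that is not known, so a signal is read only against the same probe set on other arrays or the median of all probe sets. Precision is limited by the number of arrays.

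After leaving out 57 control probe sets, 31042 entered a linear model with moderated errors (limma 3.58.1, run in R 4.3.3) that held the replicate number as a block. P-values were adjusted over the 50% with the larger interquartile range, a filter of the size used by the study. Its methods name an unpaired t-test, which was run as an alternative. The pairing comes from the labels' numbers, since every pair of equal number correlated above 0.1 in its deviations. Other steps used Python 3.11 with SciPy 1.17.1. The fit was run on simulated data with a shared replicate effect built in, which checks the computation and not the choice of the block. The 95% intervals come from the moderated errors.

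Members, roles, gene lists and the replicate block were chosen with earlier results of these data known. For that reason no list was tested. Genes given sample by sample were Gbp2, Mx1, Oas1a and Rsad2, those called, and the 6 largest rises and 6 largest falls. From each pathway list, called genes and up to 4 with the largest differences were named. Alternatives covered the block, the test, the filter, scaling, array weights, the variance prior, the beta-actin gap, the probe set per gene and each replicate number left out. Probe sets with several symbols (436) or none (9780) were not named. Motifs were searched in RefSeq promoter windows (build GRCr8).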

Additional observations from a re-analysis of the deposited data

Results flagged for a closer look

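In the 14 genes given sample by sample, the highest and the lowest of the 5 values of each group were set against the other 4 with Dixon's ratio, 28 groups in all, and chance alone singles out about 1 in 20 groups. Oas1a in mye-macrophages of replicate 1 was at 4.96, and the nearest of the other values was 3.97 (ratio 0.739, critical value 0.71). The control macrophages of the same number were also the highest of their group, at 4.37. Mx2 in mye-macrophages of replicate 4 was at 6.02, and the nearest of the other values was 7.14 (ratio 0.750). The control macrophages of replicate 4 were likewise the lowest of their group, at 6.34.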

How the results depend on the processing

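The 2 calls, Ifitm1 and Isg20, held in 6 of 15 alternatives and were lost in 9. The number of member probe sets called was 0 with no replicate block, 0 with the methods' t-test, 0 with a paired t-test per probe set, 0 when no variance filter was used and 0 when the beta-actin gap entered as a covariate beside the block, while at an unadjusted p below 0.05 these settings gave 0, 0, 11, 15 and 7. It was 4 with quantile normalization, 4 with array weights and 7 with a robust variance prior with a trend. These settings gave 456, 562 and 1041 calls over all probe sets. Over all probe sets the block gave 418 calls and the fit with no replicate block 0 (1032 at an unadjusted p below 0.05), as did both t-tests (778 unpaired and 2314 paired). With no variance filter it gave 128 calls (3766 at an unadjusted p below 0.05), and with the beta-actin gap 16 (1791). Leaving out a replicate number gave 0 to 2 member calls, 2 without replicate 3 and 0 without each of the others, and 31 to 659 calls over all probe sets. Oas1a, Ifitm2, Zbp1 and Irgm missed the threshold in the main test but passed it under other settings (2 with quantile normalization, 2 with array weights and all 4 with the robust prior), such as Irgm at an adjusted p of 0.00938 and Ifitm2 at 0.0231 with the robust prior. The call of Ido1 among the pathway genes was lost with no replicate block (0 calls) and without the variance filter (0), and 0 to 1 were left when a replicate number was left out. The direction of Rsad2 turned without replicate 5 (-0.0024) and was 0.17 without replicate 2. Apart from these, the medians of the 41 genes and of the 8 roles stayed within the replicate spread in all alternatives run for them (10 and 80). Medians near 0 still turned sign: the Mx and restriction factors to 0.03 with the probe set of the largest interquartile range, Isg15 and its enzymes to -0.04 without replicate 1, -0.06 without replicate 3 and -0.04 with the mean of all probe sets, and the other interferon-inducible genes to 0.01 with quantile normalization, 0.0029 with array weights and 0.06 without replicate 2. In 170 cases a single gene kept direction and side of the threshold, and in 13 more, all of Sp100, it kept direction with no adjusted p. The cause of these changes was not tested. With 5 arrays a group and the replicate block, 37 genes have an interval inside 0.5 log2 units, and changes inside that bound can go uncalled.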
